A study of Homo sapiens with 10 samples.

Results

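Polycomb repressive complex 2 (PRC2) is the enzyme complex that methylates lysine 27 of histone H3, and 10 of its genes were followed here among the 241080 loci of the deposited gene table. They were chosen by name: EZH1, EZH2, SUZ12, EED, RBBP4 and RBBP7 of the core, and JARID2, PHF19, MTF2 and PHF1 of the accessory subunits. Each gene had 1 row of its own among the annotated loci, with no row shared with another gene, and only these rows were used. RBBP4 was named in 8 rows when every kind of locus was counted. Of the rows used, 9 had been tested by the authors (status OK) and 1, RBBP4, had not. All 9 passed an FPKM of at least 1 in either fraction (fragments counted per length of transcript and per depth of library).

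The RNA came from nuclei of HEK293 cells with no treatment named, an adherent human embryonic kidney line. After detergent lysis the nuclei were split into soluble extract (SNE) and chromatin pellet (CPE), and each fraction was labelled in 3 samples, described as biological replicates. For each locus and fraction the table holds a single FPKM value. Neither a spread between replicates nor the depth of a library could therefore be given. A further 2 CPE samples with DRB and 2 mock CPE samples were not analysed here. A locus was called where the q value of the authors' Cuffdiff test, as deposited, was at most 0.05. In these bulk extracts, RNA per nucleus and the number of nuclei that hold it could not be told apart.

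PRC2 is built on a catalytic subunit, EZH1 or EZH2, which is inactive alone and gains activity by binding SUZ12 and EED. SUZ12 is the scaffold, EED reads the methyl mark that the complex deposits, and the histone binding proteins RBBP4 and RBBP7 are shared with other chromatin complexes. Accessory subunits divide the complex into forms: PHF1, MTF2 and PHF19, the Polycomb-like proteins, define one, and JARID2 with AEBP2 defines the other. PRC2 binds RNA, and the question that the fractionation addresses is which RNAs stay with chromatin. Here it is the complex's own transcripts that are described.

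Known RNAs of the nucleus and of messenger type were checked in both fractions. NEAT1 and MALAT1, nuclear body RNAs, were 10.8-fold and 2.73-fold higher in CPE, and GAPDH, an abundant messenger RNA, was 5.06-fold higher in SNE. The rows that hold ACTB and EEF2, each shared with another gene, had SNE over CPE ratios of 1.67 (q = 0.503, not called) and 1.68 (q = 0.0192, called) from the authors' deposited table. VIM and KRT8, fixed as markers of the line, were found at 173.0 and 86.9 FPKM in SNE, while PAX2 and LHX1, of the early kidney, were below 1 in both fractions. The 6 markers of other cell types (ALB, APOA1, HBB, PTPRC, CD3E and GFAP) ranged from 0 to 0.373 FPKM. HBB and CD3E were listed at 0 in both fractions.

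The paralogs EZH1 and EZH2 lay on opposite sides of equal levels in CPE and SNE, without a call for either. Promoter sequences are shown for them and for RBBP7, the member of highest level and lowest ratio of CPE over SNE. Each runs 5′ to 3′ over the 250 bases before the annotated start, from RefSeq on GRCh38.p14, and capitals mark CCAAT boxes on either strand (CCAAT or ATTGG).
EZH1 (chr17:42745041-42745290, minus strand): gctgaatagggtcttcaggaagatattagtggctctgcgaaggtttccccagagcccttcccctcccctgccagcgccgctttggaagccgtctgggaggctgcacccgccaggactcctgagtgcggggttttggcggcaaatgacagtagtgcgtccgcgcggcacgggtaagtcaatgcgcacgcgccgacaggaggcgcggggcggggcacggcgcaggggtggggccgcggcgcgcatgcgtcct
EZH2 (chr7:148884292-148884541, minus strand): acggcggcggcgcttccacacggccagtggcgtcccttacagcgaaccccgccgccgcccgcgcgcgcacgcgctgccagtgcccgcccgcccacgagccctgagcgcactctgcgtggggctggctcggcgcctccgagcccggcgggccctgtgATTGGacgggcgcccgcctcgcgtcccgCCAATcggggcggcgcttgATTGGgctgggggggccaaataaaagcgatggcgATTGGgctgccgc
RBBP7 (chrX:16870363-16870612, minus strand): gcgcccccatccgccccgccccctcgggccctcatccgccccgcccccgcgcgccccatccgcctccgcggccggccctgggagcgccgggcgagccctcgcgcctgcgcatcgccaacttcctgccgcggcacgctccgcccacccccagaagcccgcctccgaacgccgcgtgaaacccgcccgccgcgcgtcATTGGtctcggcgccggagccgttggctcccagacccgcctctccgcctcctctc
The EZH2 window holds 4 CCAAT boxes, the RBBP7 window 1 and the EZH1 window 0. Over the first listed promoter of each of the 10 genes, 7 held a CCAAT box, against 33.0% of 27305 promoters. A GC box (GGGCGG on either strand, overlaps counted) was found in 8 of the 10 and in 42.3% of all, and TATAAA in 1 (JARID2) and in 11.1%. The E2F motifs TTTCGCGC and TTTGGCGC were found in 0 of the 10 windows and in 0.996% of all. The GC content of the 10 ran from 51.2% (EED) to 79.6% (RBBP7), with a median of 58% over all promoters. A match is a description of the letters, and no binding was measured here.

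Transcripts of 4 PRC2 genes were higher in the soluble extract, none was called higher in the chromatin pellet, and 5 were not called. The 4 were RBBP7, PHF19, SUZ12 and JARID2. Among all 12630 measured loci with 1 symbol, 48.1% were called higher in SNE and 1.49% were called higher in CPE, so the share of 4 in 9 (44.4%) lies near the background. By Cuffdiff's unadjusted p under 0.05, 4 members were higher in SNE and 0 were higher in CPE. On the log2 scale of CPE over SNE, the 9 genes had a median of -0.64, against -1.36 for the measured loci with 1 symbol.

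**Figure D1:**
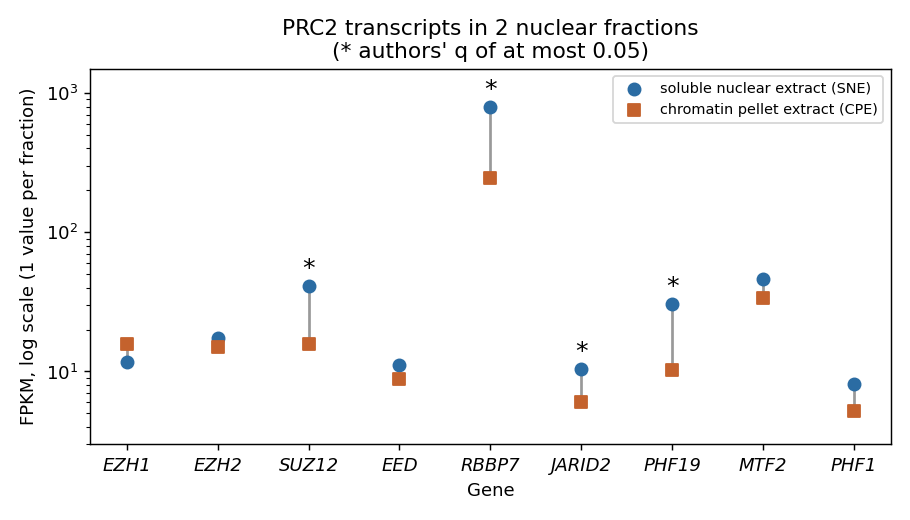
FPKM of 9 PRC2 genes (log axis) in the soluble nuclear extract (circles) and the chromatin pellet extract (squares), 1 value of the authors per fraction, with a line joining the values of a gene. RBBP7 stands highest at 788.7 and 245.96, and EZH1 is the only gene of the 9 whose chromatin value lies above its soluble value.

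The catalytic subunits lay at the chromatin end of the set. EZH1, the paralog that prevails in resting cells, stood at 11.8 FPKM in SNE and 15.7 in CPE, both the authors' values. It was thus 1.33-fold higher in the pellet, without a call (p = 0.107 and q = 0.410 in the authors' deposited table; region on hg19 chromosome 17, 40852161 to 40897071). EZH2, the paralog of dividing cells, had 17.4 in SNE and 15.1 in CPE, a 1.15-fold difference toward SNE that was not called either (q = 0.591 in the authors' deposited table; chromosome 7, 148393559 to 148581413). In the soluble extract the EZH2 level was 1.48 times the EZH1 level, and in the pellet it was 0.959 times it. These are ratios of levels normalised to length, without a test of the difference between the genes.

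The other core subunits divided. SUZ12 had 40.8 FPKM in SNE and 15.7 in CPE, and was 2.60-fold higher in SNE (q = 0.000706 in the authors' deposited table, chromosome 17, 30264037 to 30333707). This is the smallest q listed there, and 13655 loci share it. EED, at 11.1 and 8.82, passed no threshold (q = 0.493 in the authors' deposited table; chromosome 11, 85955586 to 85996899). The scaffold SUZ12 therefore stood at 3.67 times the level of EED in the soluble extract and at 1.78 times in the pellet. Against EZH2, SUZ12 was 2.35 times as high in SNE and 1.04 times as high in CPE.

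RBBP7 was far the most abundant of the 9 transcripts, with 788.7 FPKM in SNE and 245.96 in CPE. It was 3.21-fold higher in SNE (q = 0.000706 in the authors' deposited table; chromosome X, 16804550 to 16888537). Its level was 19.3 times that of SUZ12 in SNE and 15.7 times in CPE. RBBP7 made up most of the summed level of the 9 genes, which was 965.1 FPKM in SNE and 356.3 in CPE with it, and 176.3 and 110.3 without it. RBBP4, the close paralog of RBBP7, could not be read. Its row shares a region of 3543 loci on chromosome 1 (11869 to 33969134), all of them above Cuffdiff's data limit, and its listed zeros are failed estimates, not absence.

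Of the Polycomb-like proteins, which bind unmethylated CpG islands, PHF19 alone was called. It had 30.8 FPKM in SNE and 10.2 in CPE, 3.01-fold higher in SNE (q = 0.000706 in the authors' deposited table; chromosome 9, 123617719 to 123639606). MTF2 was the most abundant of these in both fractions, with 46.0 and 33.7, and no call was made (q = 0.493 in the authors' deposited table; chromosome 1, 93544792 to 93840013). PHF1 had 8.07 and 5.16, also without a call (q = 0.343 in the authors' deposited table; chromosome 6, 33378176 to 33386094). MTF2 stood at 1.496 times the level of PHF19 in the soluble extract and at 3.30 times in the pellet. The differences between these genes' ratios were not tested.

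JARID2, a catalytically inactive member of the Jumonji family that recruits PRC2, had 10.4 FPKM in SNE and 6.02 in CPE. It was 1.73-fold higher in SNE (q = 0.0270 in the authors' deposited table; chromosome 6, 15246527 to 15663289). This was the weakest of the 4 calls, and it is lost at a q of at most 0.01 or with a minimum absolute log2 ratio of 1. JARID2 is the longest of the 9 tested genes, at 276.0 kb, and PHF1 the shortest, at 6.03 kb (RefSeq gene lengths). Over the 9 genes Spearman's rho between gene length and log2 ratio was 0.10, against 0.28 over 9905 loci with a length. All points share the same libraries, and these are descriptions across genes.

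Ratios are set on the authors' scale, on which most messenger RNAs lie below 0. The 10065 loci that carried 1 symbol and reached FPKM 1 in both fractions had a median log2 ratio of -1.35 (quartiles -1.91 and -0.61), and 12.4% lay above 0. Placed in that distribution, RBBP7 was at percentile 35.5, PHF19 at 39.5 and SUZ12 at 48.9. JARID2 was at 70.1, PHF1 at 74.0, MTF2 at 79.1, EED at 82.0, EZH2 at 84.6 and EZH1 at 92.4. Thus 6 of the 9 lay above the median and 3 below it. Relative to that median, EZH1 had a log2 ratio of 1.77 and RBBP7 of -0.33, and SUZ12, at -0.03, was next to it. With this shift the 4 called genes divide into 3 on the soluble side and 1, JARID2, on the chromatin side, which counts signs only.

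**Figure D2:**
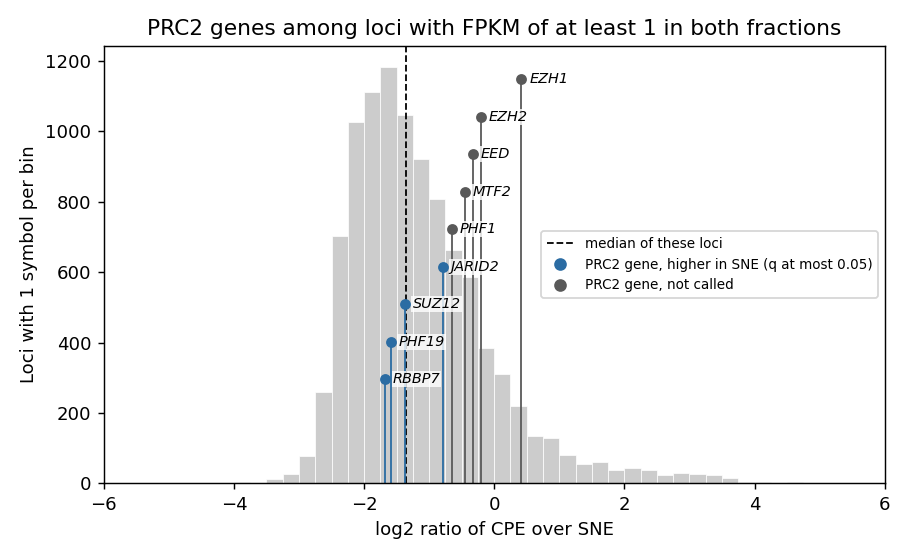
Histogram of the log2 ratio of CPE over SNE for the 10065 loci that carried 1 symbol and reached FPKM 1 in both fractions, in bins of 0.25, with the 9 PRC2 genes as labelled lines whose heights carry no value. The 3 genes with the smallest q stand at or left of the dashed median of -1.35, and EZH1 stands farthest right at 0.42.

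By the distance between log2(FPKM + 0.1) values in the 2 fractions, the loci most like EZH2 were FRYL, ZNF267 and ZNF518A, with distances of 0.015, 0.029 and 0.038. Those most like EZH1 were DENND4C and ZNF37BP, at 0.059 and 0.070, and then a locus with a clone name at 0.093. The likeness rests on 2 values per locus.

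Copies of PRC2 genes elsewhere in the genome could share reads with them. SUZ12P, a partial copy of SUZ12 on chromosome 17, had 14.4 FPKM in SNE and 9.22 in CPE, a 1.56-fold difference without a call (q = 0.475 in the authors' deposited table). EZH2P1, a processed copy of EZH2, had 8.42 and 0.635, also without a call (q = 0.497 in the authors' deposited table). RBBP4P1 stood at 18.1 FPKM in SNE and 5.29 in CPE, with too little data for a test. RBBP4P4, at 1.69 and 0.489, and RBBP4P5, at 0.989 and 0.327, were lower in CPE at q = 0.000706 and q = 0.00806 in the authors' deposited table. The sources used here do not say how reads with several matches were assigned, and the values of SUZ12 and EZH2 carry that uncertainty.

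Isoform values could be used for EZH2, PHF19 and RBBP7. In the deposited isoform table the values often do not add up to the gene beside them. They did for 8 of 11476 loci of the kind without a symbol that had several isoforms. Among annotated loci with several isoforms and values above 0 in both fractions, they did for 1879 of 2386. Over the last 3172 annotated loci with values above 0, however, the isoform FPKM sum to the gene FPKM within 0.1% in both fractions, without an exception. For these 3 genes the sums are 17.4 and 15.1, 30.8 and 10.2, and 788.7 and 245.96, as in the gene table. The isoforms of EED sum to 2.70 and 7.92 and were set aside. For EZH1, SUZ12, JARID2, MTF2 and PHF1 no isoform rows were found under the locus of the gene. RBBP4 had no usable gene value to compare. The isoforms carry serial numbers in place of transcript names, so they are ranked here by their level in SNE.

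EZH2 had 13 isoforms, of which 5 were tested. Isoform 1, the leading one, had 13.6 FPKM in SNE and 4.96 in CPE, and fell short of a call (q = 0.0505, p = 0.00635 in the authors' deposited table). All other EZH2 isoforms together went the opposite way, from 3.83 in SNE to 10.1 in CPE, 2.63-fold higher in the pellet. The leading isoform thus held 77.9% of the EZH2 level in SNE and 33.0% in CPE. Isoform 3 had 1.23 in SNE and 3.65 in CPE, isoform 4 had 0.188 and 2.42, and isoform 6 had 0.0833 and 3.79. Their q values in the authors' deposited table were 0.144, 0.394 and 0.489. Isoform 2 had 2.23 in SNE and was listed at 0 in CPE. None of the 5 was called in either direction by Cuffdiff, and at an unadjusted p under 0.05 there was 1 higher in SNE and 1 higher in CPE.

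The EZH2 gene value thus adds up isoform estimates that lie on both sides of equal levels, none of them called. Isoform 2 lay on the same side as isoform 1, and a shift between isoforms was not tested. For comparison, 1062 loci with several isoforms and FPKM of at least 1 in both fractions were taken from the last 3172 annotated loci. In these the isoform leading in SNE held a median of 50.3% in SNE and 35.5% in CPE. Since it was chosen for its soluble level, some drop is built in. The drop for EZH2 was 44.99 percentage points, and 5.46% of the loci had a larger one. For PHF19 and RBBP7 the drops were 30.1 and 8.06 points.

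In PHF19 and RBBP7 the main isoforms were lower in the pellet. The leading PHF19 isoform had 16.4 FPKM in SNE and 2.36 in CPE, 6.93-fold higher in SNE (q = 0.0248 in the authors' deposited table). Isoform 4 was 2.995-fold higher in SNE (q = 0.00358 in the authors' deposited table), and these were the calls among 7 tested PHF19 isoforms. In the pellet isoform 2 led, with 31.9% of the PHF19 level against 16.2% in SNE, and it had too little data for a test. RBBP7 kept the same leading isoform, with 33.4% in SNE and 25.3% in CPE, which had too little data for a test. Among the 6 tested RBBP7 isoforms 3 were called. Isoform 2 was 2.71-fold higher in SNE, isoform 3 was 6.23-fold and isoform 6 was 6.17-fold, and each had q = 0.000698 in the authors' deposited table. Over the 4303 tested isoforms of the loci compared, 13.9% were called higher in SNE and 0.651% were called higher in CPE.

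**Figure D3:**
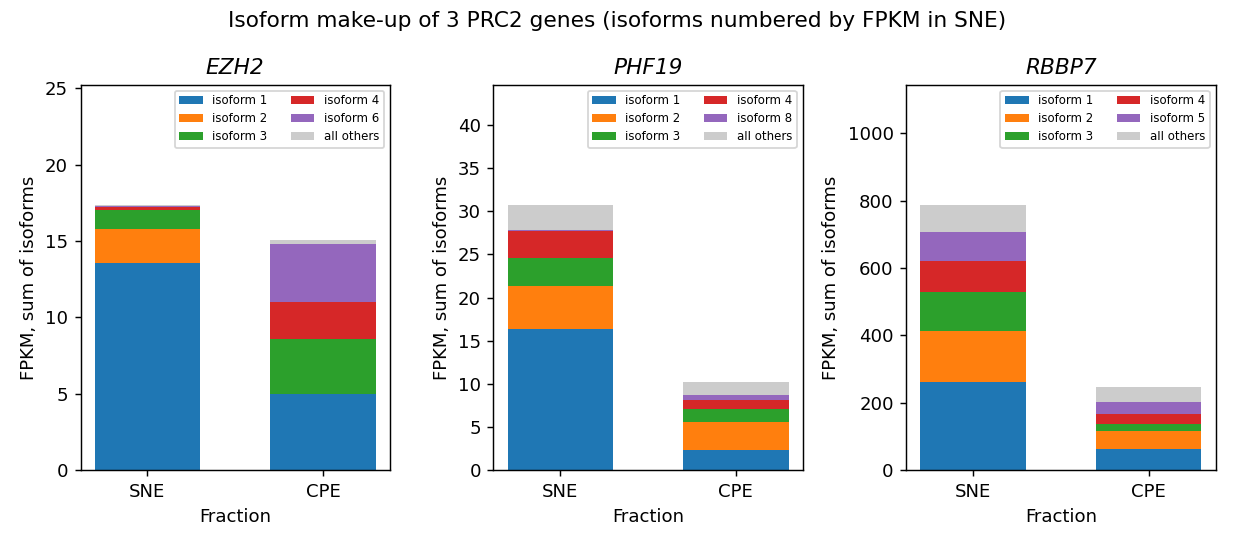
Isoform FPKM stacked to the gene FPKM in SNE and CPE for EZH2, PHF19 and RBBP7, with the 5 isoforms of largest share in either fraction in colour and the rest in grey. Isoform 1 of EZH2 shrinks from 13.6 to 4.96 and isoform 2 from 2.23 to 0, while isoforms 3, 4 and 6 grow. None of these EZH2 differences was called. The whole stacks of PHF19 and RBBP7 are lower in CPE.

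The regions that hold PRC2 genes also hold loci without a symbol, whose values were higher in CPE. A region here is the stretch of the genome that Cuffdiff handled together, and the position of a locus within it was not given. In the 9 readable regions 223 such loci had been tested, and all 223 had a log2 ratio above 0. Of these, 11 were called higher in CPE and 0 were called higher in SNE by Cuffdiff, at unadjusted p under 0.05 as well for the latter. The median log2 ratio was 3.17. This is close to loci without a symbol in general, of which 97.3% of 174660 lay above 0 with a median of 3.33. Calls in CPE made up 4.93% here and 9.45% over all of them, and calls in SNE 0.63% over all of them. The sources used here do not say how such loci were made.

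The regions differed in how many of these loci they held. The JARID2 region, of 416.8 kb, held 94 tested loci without a symbol, the MTF2 region 53 and the EZH2 region 33. In the SUZ12 region there were 14, in those of RBBP7 and PHF19 9 each, in that of EZH1 8, in that of PHF1 2 and in that of EED 1. In the JARID2 region 13 of them, none called, had a chromatin FPKM above that of JARID2 itself. In the EZH2 region 1 did, at 25.6 FPKM in CPE against 15.1 for EZH2, and it was not called (2.34 FPKM in SNE, q = 0.587 in the authors' deposited table). In the other 7 regions none did. The lengths of these loci were not given, and FPKM is less reliable for short ones.

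The called loci without a symbol spread over 6 of the 9 regions, with 3 in each of the EZH2 and JARID2 regions, 2 with MTF2 and 1 each with SUZ12, EED and PHF19. The one of highest level in the EZH2 region had 3.03 FPKM in SNE and 9.59 in CPE (q = 0.0188 in the authors' deposited table). In the MTF2 region it had 3.41 and 16.6 (q = 0.0463 in the authors' deposited table), while MTF2 itself lay at 46.0 and 33.7. The SUZ12 region held one at 0.865 and 6.70, 7.75-fold higher in CPE (q = 0.000706 in the authors' deposited table), beside a SUZ12 transcript called in the opposite direction. The locus in the EED region was 6.86-fold higher in CPE at the same q. Those in the JARID2 and PHF19 regions had pellet excesses of 4.54-fold and 4.35-fold (q = 0.0263 and q = 0.00665 in the authors' deposited table). No locus without a symbol was called in the regions of EZH1, RBBP7 and PHF1, where 1, 0 and 1 of them had an unadjusted Cuffdiff p under 0.05.

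**Figure D4:**
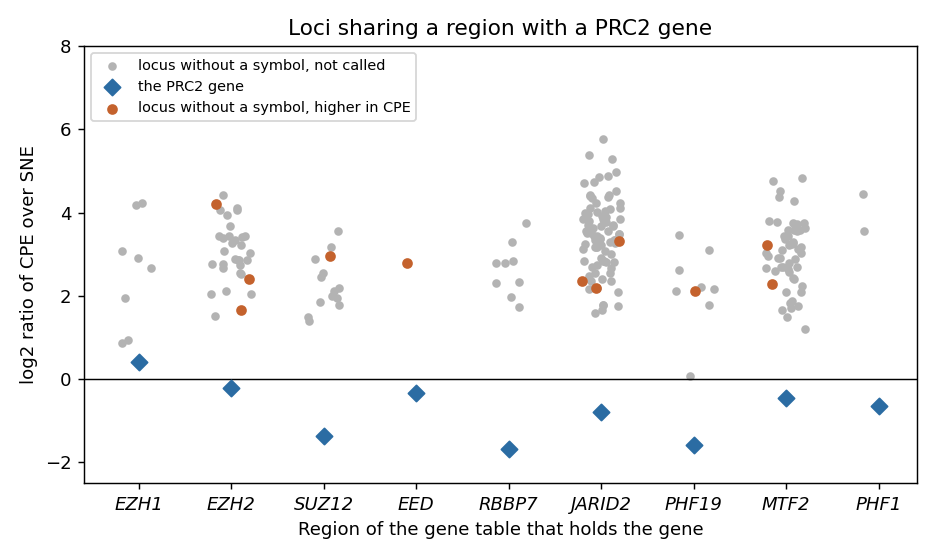
Log2 ratio of CPE over SNE for tested loci without a symbol (circles, those called in colour) and for the PRC2 gene of the same region (diamonds), with 7 loci of the JARID2 region that are listed at 0 in SNE left out. All circles lie above 0, and 8 of the 9 diamonds lie below it.

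The remaining PRC2 accessory subunits gave 1 call in 4 measured genes, toward SNE (25%, against 48.1% of all measured loci). EPOP, listed as C17orf96 and a partner of the Polycomb-like form, had 1.54 FPKM in SNE and 0.1998 in CPE, 7.73-fold higher in SNE (q = 0.000706 in the authors' deposited table). Its pellet value lies below the FPKM minimum of 1, and the call is lost at a minimum of 5. AEBP2, the partner of JARID2, had 8.94 and 4.50, LCOR 25.7 and 19.0, and LCORL 8.83 and 3.29, none of them called (q = 0.269, 0.646 and 0.356 in the authors' deposited table). EZHIP, listed as CXorf67 and an inhibitor of PRC2, was below the minimum at 0.0669 and 0.243. The list median was -1.21.

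PRC1, which ubiquitinates histone H2A and reads the PRC2 mark through its CBX subunits, had 18 measured genes, of which 11 were called toward SNE, 0 toward CPE and 7 in neither direction. That is 61.1% toward SNE, against 48.1% of all measured loci with 1 symbol. By unadjusted Cuffdiff p under 0.05 the numbers were 15 and 0. BCOR and CBX6, of highest mean FPKM over both fractions among the measured genes of the list (rows shared with another gene left out), had soluble excesses of 2.40-fold and 3.38-fold (q = 0.0103 and q = 0.000706 in the authors' deposited table). The ubiquitin ligase gene RING1 exceeded its pellet level by 4.05-fold in SNE, with q = 0.000706 in the authors' deposited table. PHC3, named after its value was seen, was the 1 measured PRC1 gene above 0, at 15.4 FPKM in SNE and 20.5 in CPE without a call. The median of -1.72 lay below that of the PRC2 genes, a difference that was not tested.

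Of 6 genes that remove or oppose the Polycomb marks, 1 was called, toward SNE (16.7%, against 48.1% of all measured loci). BAP1, a histone H2A deubiquitinase, had 43.4 FPKM in SNE and 15.3 in CPE (q = 0.000706 in the authors' deposited table). The demethylase genes KDM6A and KDM6B had 26.99 and 25.4, and 1.27 and 2.52 (q = 0.781 and q = 0.443 in the authors' deposited table). ASXL1, ASXL2 and ASXL3, partners of BAP1, lay at -0.60, -0.86 and -0.65 on the log2 scale of CPE over SNE, and none was called (q = 0.132, 0.290 and 0.536 in the authors' deposited table). The list median was -0.62.

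Partners that RBBP4 and RBBP7 have outside PRC2 included 16 measured genes, of which 10 were called toward SNE (62.5%, against 48.1% of all measured loci), 0 toward CPE and 6 in neither direction. At an unadjusted Cuffdiff p under 0.05 the numbers were 12 and 0. CHD4, the remodeling subunit of NuRD, had 477.4 FPKM in SNE and 513.7 in CPE without a call (q = 0.935 in the authors' deposited table). SAP18 and SAP30, of the SIN3 complex, had soluble excesses of 5.07-fold and 7.78-fold (q = 0.000706 and q = 0.00251 in the authors' deposited table). COMPASS genes encode the opposing methyltransferases of histone H3 lysine 4 and their partner subunits. Of 13 measured, 5 were called toward SNE (38.5%, against the same 48.1%), 0 toward CPE and 8 in neither direction. At an unadjusted Cuffdiff p under 0.05 there were 8 and 0. CXXC1 and HCFC1 had soluble excesses of 2.37-fold and 2.78-fold, and MEN1 and SETD1B of 3.82-fold and 3.69-fold (q between 0.000706 and 0.00251 in the authors' deposited table). KMT2A and KMT2C, named after their values were seen, had ratios above 0 without a call, at 15.9 FPKM in SNE and 29.5 in CPE, and at 14.1 and 17.3. The medians of the 2 lists were -1.51 and -1.25.

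**Figure D5:**
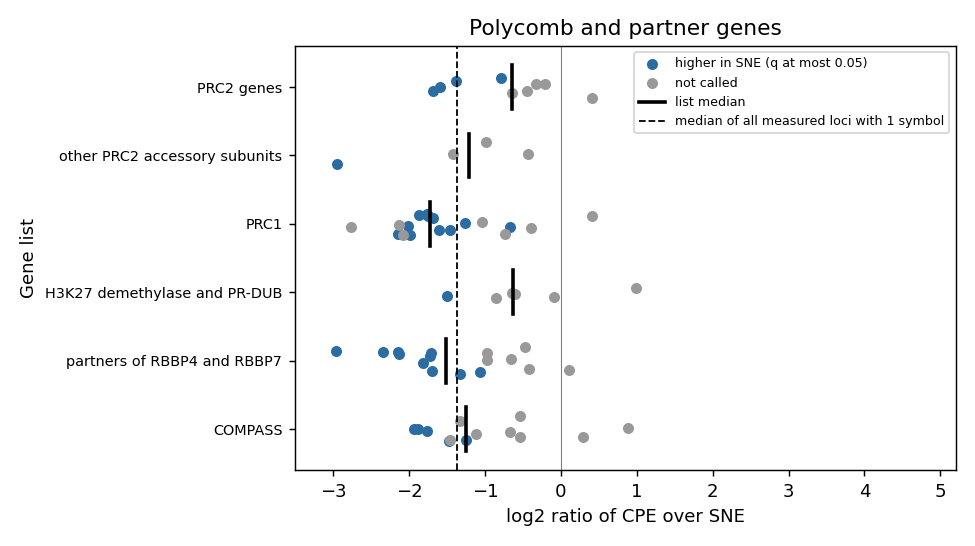
Log2 ratio of CPE over SNE for each measured gene of 6 lists, with calls in colour, list medians as bars and the median of all measured loci with 1 symbol (-1.36) dashed. The bar of the PRC2 genes (-0.64) lies right of the dashed line and that of PRC1 (-1.72) left of it.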

How the data were processed

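Per the labels' protocols, RNA of both nuclear fractions was made into stranded libraries. TopHat2, Cuffdiff and hg19 are named in the list per the submitters' processing notes, and the sources used here do not give versions, annotation or scaling. Per the file headers, the deposited tables give 1 FPKM value per fraction, a log2 ratio (CPE over SNE), a p-value and a q-value. No per-sample values were in these tables, so no test, SD or interval was added, and depth, and with it counting precision, is unknown.

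A locus was tested at status OK and called at q of at most 0.05. A measured locus had also a single symbol and reached FPKM 1 in either fraction. Start positions count from 1. Isoform rows were used only where their FPKM sum to the gene value within 0.1%, a check tested on simulated data. The PRC2 genes and the lists were chosen with earlier results of these data known.

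All PRC2 genes were named. From each other list the 2 of highest mean FPKM and the 2 called genes of largest absolute log2 ratio were named, or all genes of a list of up to 6. For EZH1 and EZH2 the 3 nearest loci were named, and per region the called locus without a symbol of highest FPKM. Some genes the rule names are not reported here. Alternatives were q of at most 0.01, an absolute log2 ratio of at least 1, FPKM of at least 5, centring, a pseudocount of 1, and rows naming several genes. Python 3.11.15 and pandas 2.3.3 were used.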

Additional observations from a re-analysis of the deposited data

How the results depend on the processing

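No paired analysis was possible because the tables hold 1 value per fraction, and leaving out replicates was not run for the same reason. Centring on the median of loci with 1 symbol (-1.35) turned the median of the PRC2 genes to 0.70 and the log2 ratios of EZH2, EED, JARID2, MTF2 and PHF1 to 1.14, 1.02, 0.56, 0.90 and 0.70. By sign alone it put on the chromatin side 1 called PRC2 gene, 2 of PRC1, 2 of the RBBP4 and RBBP7 partners and 1 of COMPASS, each 0 before. The authors' q was not recomputed. With log2((CPE + 1)/(SNE + 1)) the PRC2 median was -0.56. At FPKM of at least 5 the called accessory subunit, EPOP, was lost, leaving 0, since fewer genes were measured. The other 71 comparisons of a list's calls or median stayed within 1.5 times or unchanged, and 22 of 27 single-gene ratios kept their sign. Without replicate values or depth, no difference between genes could be tested.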

Other observations

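Some named neighbours of the PRC2 genes in the same regions are given as values, and 48.1% of all measured loci with 1 symbol were called higher in SNE. CUTA, beside PHF1, was 5.11-fold higher in SNE at 175.0 and 34.2 FPKM (q = 0.000706 in the authors' deposited table). CUL1, beside EZH2, was 3.18-fold higher in SNE, at 31.2 FPKM in SNE and 9.80 in CPE (q = 0.00194 in the authors' deposited table). TXLNG, beside RBBP7, was 3.11-fold higher in SNE, and DR1 and TMED5, beside MTF2, were 3.04-fold and 3.22-fold higher (q = 0.000706, 0.0125 and 0.00713 in the authors' deposited table). CCDC18, also beside MTF2, had 26.8 and 27.8 FPKM and DTNBP1, beside JARID2, 6.41 and 2.27, both without a call (q = 0.943 and q = 0.272 in the authors' deposited table). JARID2-AS1 had 0.292 and 0.0603 FPKM. RNU6-522P, beside JARID2, had the higher value in the pellet, at 5.32 FPKM in SNE and 37.6 in CPE. A clone-named locus beside RBBP7 did too, at 11.8 and 35.9. Neither was called (q = 0.608 and q = 0.559 in the authors' deposited table). These neighbours were named after their values were seen. The difference between CUL1 and EZH2, or between MTF2 and its neighbours, was not tested.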
